A study of Homo sapiens with 1 sample.

Results

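The 10 genes described here carry Notch signalling in human neural progenitor cells: the receptors NOTCH1, NOTCH2 and NOTCH3, the ligands DLL1, DLL3 and JAG1, and the target genes HES1, HES4, HES5 and HEY1. They were taken by name from the 33538 genes listed for 1 single-cell RNA-seq library. The cells were derived from the human embryonic stem cell line H9, genotype WT, and carried the human form of the enhancer HAR123 (hHAR123). The cells had been exposed to 1 μM dorsomorphin and 10 μM SB431542, inhibitors of BMP and of TGF-β/activin receptors, first for 2 days as colonies together with 5 μM of a Rock inhibitor and then for 5 days in rotating suspension, and were grown for a further 7 days after replating. Per the study's methods, clones of the genotype were pooled and the cells were collected before neural rosettes were selected. The libraries of the other HAR123 genotypes were not analysed here.

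In Notch signalling a ligand on a neighbouring cell binds the receptor, the receptor is cut, and its freed intracellular domain joins the DNA-binding protein RBPJ to switch on HES and HEY genes. The HES and HEY proteins are repressors that hold down proneural genes and keep neural progenitors undifferentiated, while cells that begin to form neurons typically raise DLL ligands and lower HES targets. DLL3 is the divergent member of the ligands: it acts inside the cell that makes it and does not activate Notch on neighbours.

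Of 14726 barcodes, 13925 had 2000 to 10000 detected genes and a mitochondrial share of unique molecular identifiers (UMIs) below 0.1. Among these, 121 cells (0.869%) had a UMI of at least 3 of the 6 neuronal genes STMN2, ELAVL3, ELAVL4, INSM1, NHLH1 and NEUROD1 and are called newborn neuron-like. Another 1582 cells (11.4%) held 5 or more UMIs of ANXA1, TFPI2 and CTGF together per 10000 UMIs and are called contractile. The remaining 12220 cells (87.8%) met neither rule and are called progenitors, and 2 cells that met both rules were left out. By cell cycle scores the progenitors comprised 3059 cells in G1, 5168 in S and 3993 in G2/M. The median UMIs per cell were 16944 in progenitors, 14100 in newborn neuron-like cells and 47149.5 in contractile cells. Levels are given as counts per 1000000 UMIs (CPM), summed over the cells of a class, with exact 95% Poisson intervals or, for ratios and shares, exact conditional or Clopper-Pearson intervals. With 1 library there are no replicates, so no test was run, the intervals cover counting error only, and a gene is counted as higher or lower in a class when its ratio passes 2-fold.

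Most markers outside the rules went with the class names. In newborn neuron-like cells all 8 further neuronal markers were more than 2-fold higher than in progenitors, and their summed level was 2881 against 715 CPM. The progenitor marker SOX2 was lower there, at 142 against 414 CPM, as were 4 more of the 8 progenitor markers. TFAP2A, placed on a list of 3 neural crest markers, was 79.3-fold higher in newborn neuron-like cells, whereas SOX10 was at 1 UMI and FOXD3 at 0 UMIs there. In contractile cells all 8 further contractile markers were higher, by 4.37-fold to 10.3-fold, and so were all 4 mesenchymal markers, summing to 163.6 against 15.1 CPM. The endothelial markers summed to 19.4 against 16.2 CPM, mostly KDR, with PECAM1 at 0.300 CPM, but CDH5 was 4.43-fold higher (3.52 to 5.59), at 2.44 against 0.551 CPM. Of the 8 progenitor markers, SOX1 (7.71 against 60.04 CPM), SOX2, PAX6 and LHX2 were lower in contractile cells, VIM (4301 against 909 CPM) and NES were higher, and 2 were neither. The neuronal marker GAP43 was also 8.46-fold higher there, at 145 against 17.1 CPM, as was the neuronal rule gene STMN2, at 31.7 against 11.9 CPM, while 4 of the 8 further neuronal markers were lower. The pluripotency genes POU5F1 and NANOG together stayed below 1 CPM in all of these classes.

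The promoters of the target genes are shown because those of HES1, HES4 and HES5 share a short run of letters that RBPJ is known to bind. RefSeq promoters (GRCh38.p14) were at hand for 7 of the 10 members, and the 250 bases before the start of each were searched for GTGGGAA, the core that RBPJ binds, on both strands. HES1, HES4 and HES5 each held it, and NOTCH1, NOTCH2, NOTCH3 and JAG1 did not. For comparison, 5.43% of 35116 RefSeq promoters held it in a window of the same length. The first base of the match on the gene's own strand lay 85 bases before the start in HES1, 77 in HES4 and 81 in HES5. These distances and windows depend on the RefSeq starts. In GENCODE v44 the HES4 gene starts at chr1:1000172, inside the window searched and within the GTGGGAA match itself. The distance of 77 bases therefore does not hold for that start. The NOTCH2 gene starts there at chr1:120100779, outside its window of chr1:120069663-120069912. HES5 held a further match on the opposite strand, 224 bases before its start. HES1 held a shorter TGGGAA at 70 bases, a run of letters found in 20.8% of promoters. The sequences of chr3:194135898-194136147 (plus strand, HES1), chr1:1000098-1000347 (minus strand, HES4) and chr1:2530264-2530513 (minus strand, HES5) read as follows from 5′ to 3′, with GTGGGAA or its reverse complement in capitals.
HES1: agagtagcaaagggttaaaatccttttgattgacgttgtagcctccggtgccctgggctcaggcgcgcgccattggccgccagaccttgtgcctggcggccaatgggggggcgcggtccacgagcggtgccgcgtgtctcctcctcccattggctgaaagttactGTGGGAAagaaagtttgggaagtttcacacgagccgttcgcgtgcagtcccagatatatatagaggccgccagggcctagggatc
HES4: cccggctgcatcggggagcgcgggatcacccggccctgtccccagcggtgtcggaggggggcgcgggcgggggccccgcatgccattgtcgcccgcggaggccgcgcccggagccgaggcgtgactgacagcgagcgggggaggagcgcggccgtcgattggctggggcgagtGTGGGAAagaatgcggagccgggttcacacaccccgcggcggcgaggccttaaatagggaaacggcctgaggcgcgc
HES5: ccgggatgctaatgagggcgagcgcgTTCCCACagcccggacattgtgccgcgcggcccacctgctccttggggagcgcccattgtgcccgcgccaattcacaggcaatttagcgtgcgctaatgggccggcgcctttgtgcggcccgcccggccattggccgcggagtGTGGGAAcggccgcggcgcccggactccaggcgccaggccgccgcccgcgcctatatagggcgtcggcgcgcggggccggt
A match is a description of these letters and not a measured binding site. HES4, for which rodents have no counterpart, and HES5 lie on the same arm of chromosome 1.

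All 10 members were detected in every class. Levels are compared between classes for 1 gene at a time and not between genes, since they are not per length. DLL1, NOTCH1, NOTCH2, JAG1 and HES5 overlap other listed genes in the annotation (GENCODE v44), among them FAM120B on the strand opposite to DLL1, and as the strand used for counting is not stated in the sources used here, their counts may include reads of those genes.

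**Figure D1:**
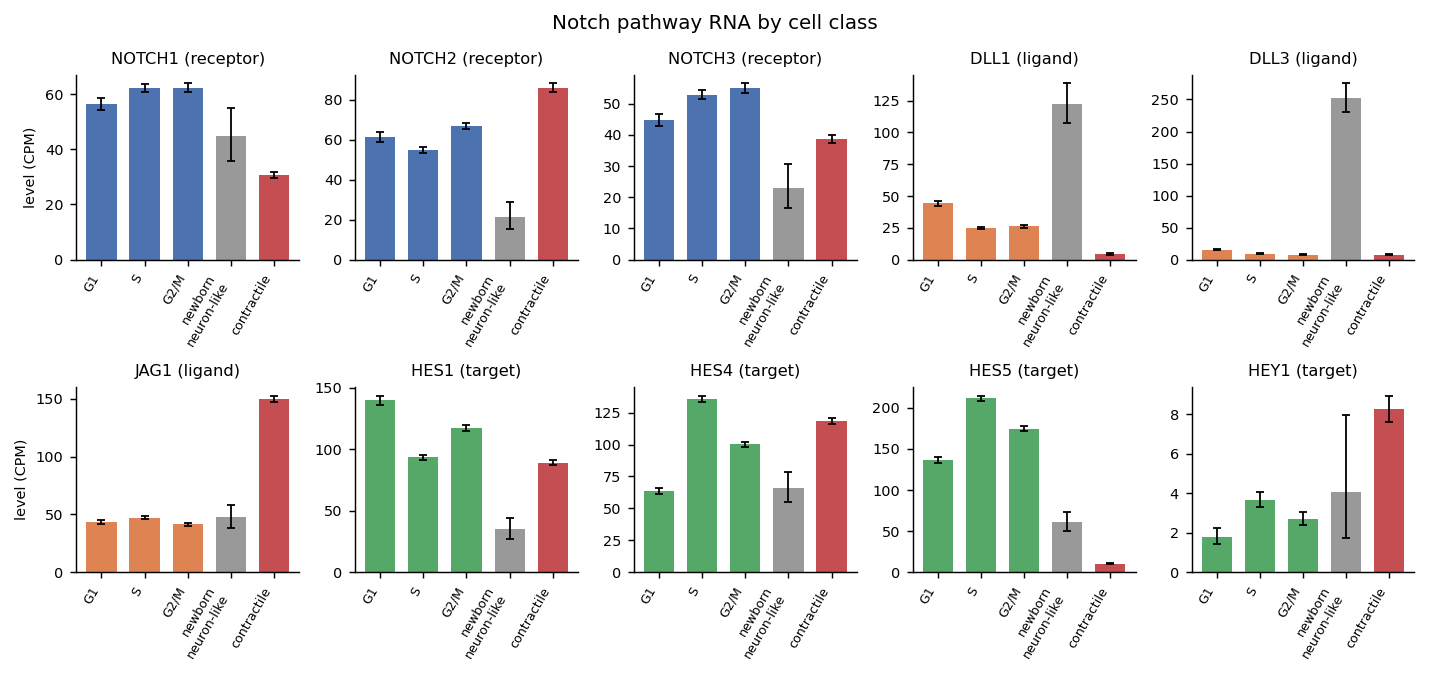
Level of each member (CPM, vertical axes starting at 0 and differing between panels) in G1, S and G2/M progenitors, newborn neuron-like cells (grey) and contractile cells (red), with exact 95% Poisson intervals as error bars. DLL3 and DLL1 stand highest in newborn neuron-like cells (252 and 122 CPM), JAG1 in contractile cells (149.6 CPM), and HES5 lowest in contractile cells (10.2 CPM).

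Newborn neuron-like cells had more DLL3 and DLL1 RNA and less HES1, HES5, NOTCH2 and NOTCH3 RNA than progenitors. DLL3 was 25.8-fold higher and DLL1, which activates Notch on neighbours, 4.20-fold higher, while the lower genes were each more than 2-fold lower. Thus 2 of 10 members were higher and 4 lower, and JAG1, NOTCH1, HES4 and HEY1 did not pass 2-fold. Among 18039 genes with at least 100 UMIs in the 2 classes together, 10.7% were 2-fold higher and 11.4% 2-fold lower, and the median ratio was 0.981 against 0.671 for the members.

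Among the ligands, DLL3 measured 252 CPM (230.4 to 275) in newborn neuron-like cells and 9.76 CPM (9.36 to 10.2) in progenitors. The 121 newborn neuron-like cells, 0.869% of all cells, held 14.7% of all DLL3 UMIs. DLL1 measured 122 CPM (107 to 139) against 29.1 CPM (28.4 to 29.8), a ratio of 4.20 (3.68 to 4.78). JAG1, a ligand of the Jagged family, was not separated from progenitors, at 47.7 against 44.2 CPM and a ratio of 1.08 (0.870 to 1.32). The gain in ligand RNA was therefore uneven over the 3 genes.

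Of the 3 receptors, 2 were lower. NOTCH2 was 21.3 CPM in newborn neuron-like cells and 61.0 CPM in progenitors, 2.87-fold lower (2.12 to 3.98), and NOTCH3 was 22.8 against 52.2 CPM, 2.29-fold lower (1.71 to 3.14). NOTCH1 stayed within 2-fold, at 44.6 against 61.1 CPM and a ratio of 0.730 (0.585 to 0.900). NOTCH2 shares near-identical sequence with its NOTCH2NL copies, so how its reads were divided is uncertain; the listed copy, NOTCH2NL, was at 2.57 CPM in progenitors and at 0 UMIs in newborn neuron-like cells, where 3 counts would be 1.52 CPM.

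Among the targets, HES1 was 35.0 CPM against 111.7 CPM, 3.19-fold lower (2.52 to 4.10), and HES5 was 60.9 against 182 CPM, 3.00-fold lower (2.51 to 3.62). HES4 was 65.9 against 107.7 CPM, a ratio of 0.612 (0.511 to 0.727) that did not pass 2-fold. HEY1 rested on 8 UMIs in newborn neuron-like cells, and its ratio of 1.39 (0.597 to 2.75) shows no direction at this depth.

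The HES5 and HES1 UMIs of the newborn neuron-like cells came mostly from a few of them. Of the 121 cells, 104 scored as G1 and 17 as S or G2/M, and these 17 cells, with a median of 30987 UMIs, held 82.5% of the class's HES5 UMIs and 76.8% of its HES1 UMIs, but 46.2% of its HES4 UMIs and 1 of its 8 HEY1 UMIs. In the 104 G1 cells HES5 was 14.9 CPM (9.20 to 22.7) and HES1 11.3 CPM (6.47 to 18.4), against 177 and 94.7 CPM in the 17 others. Compared with G1 progenitors alone, HES1 was then at 0.0811 and HES5 at 0.109 of the progenitor level, NOTCH2 at 0.185 and NOTCH3 at 0.269, while the ligand ratios were smaller than against all progenitors, at 19.3 for DLL3 and 3.36 for DLL1. DLL3 went the other way and was 296 CPM in the G1 cells and 141 CPM in the 17 others. SOX2 was 79.3 CPM in the G1 cells and 300.3 CPM in the others, and DCX, a microtubule protein of migrating neurons, 983 against 411 CPM. Whether cells captured in pairs had a part in the 17 was not tested. Without the 8% of barcodes with the highest Scrublet doublet scores, which took out 13 newborn neuron-like cells, HES5 was at 0.205 of the progenitor level and DLL3 28.6-fold higher.

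Counted per cell at an equal depth of 5000 UMIs, DLL3 was found in most newborn neuron-like cells and the other members in fewer. DLL3 had a UMI in 68.3% of newborn neuron-like cells (59.2 to 76.5%) and 4.71% of progenitors, and DLL1 in 30.8% and 13.8%. HES1 was found in 10.8% of newborn neuron-like cells and 39.0% of progenitors, and HES5 in 9.17% and 38.8%. HES4 was found in 21.7% and 36.4%, and JAG1 in 19.2% and 18.5%. In 100 of 120 newborn neuron-like cells of that depth (83.3%, 75.4 to 89.5%) neither HES1 nor HES5 had a UMI, compared with 35.4% of progenitors. Before thinning, DLL3 was found in 89.3% of newborn neuron-like cells and 16.1% of progenitors, and HES5 in 24.0% and 58.9%. RNA free in the droplets was not measured and its part in these shares was not tested. In contractile cells the shares at 5000 UMIs were 1.77% for DLL1, 3.67% for DLL3 and 3.74% for HES5. The DLL3 share of all progenitors lay close to that of contractile cells, and that of G2/M progenitors, 2.94%, lay below it.

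**Figure D2:**
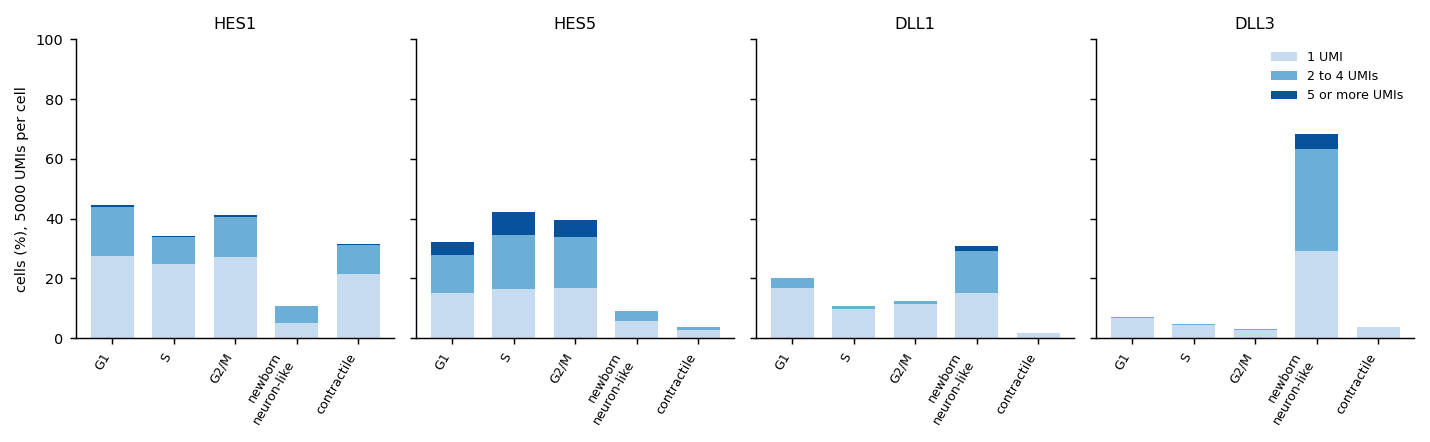
Share of cells (%, stacked) with 1, 2 to 4, or 5 or more UMIs of HES1, HES5, DLL1 and DLL3 after thinning every cell to 5000 UMIs, for G1, S and G2/M progenitors, newborn neuron-like and contractile cells. DLL3 reaches 68.3% of newborn neuron-like cells, and HES5 falls from 42.2% of S progenitors to 3.74% of contractile cells.

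In pooled CPM, between cells with 2 and cells with 4 of the neuronal rule genes, DLL3 and DLL1 differed more than 4-fold upwards and HES1 more than 4-fold downwards. DLL3 was 9.25 CPM in the 9712 cells with 0 of the 6 rule genes, 10.8 CPM with 1, 20.2 CPM with 2, 154 CPM with 3, 294 CPM with 4 and 268 CPM with 5 or 6. DLL1 went from 27.9 CPM with 0 through 51.0 CPM with 2 to 232 CPM with 4, and was 82.0 CPM with 5 or 6. The ligand levels thus differed at the far end, where DLL1 was lower than in cells with 4 genes and DLL3 was similar. HES1 was 102 CPM with 2 genes, 82.5 CPM with 3 and 17.4 CPM with 4. HES5 went from 186 CPM with 0 to 156 CPM with 2, 77.2 CPM with 4 and 39.8 CPM with 5 or 6. In cells with 2, 3, 4 and 5 or 6 genes HES4 was 96.9, 112.8, 84.7 and 45.6 CPM, and NOTCH2 58.9, 27.5, 34.9 and 14.9 CPM. The bins with 3 and 4 genes held 22 and 24 cells, and the cells just outside the threshold, with 2 genes, numbered 207.

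**Figure D3:**
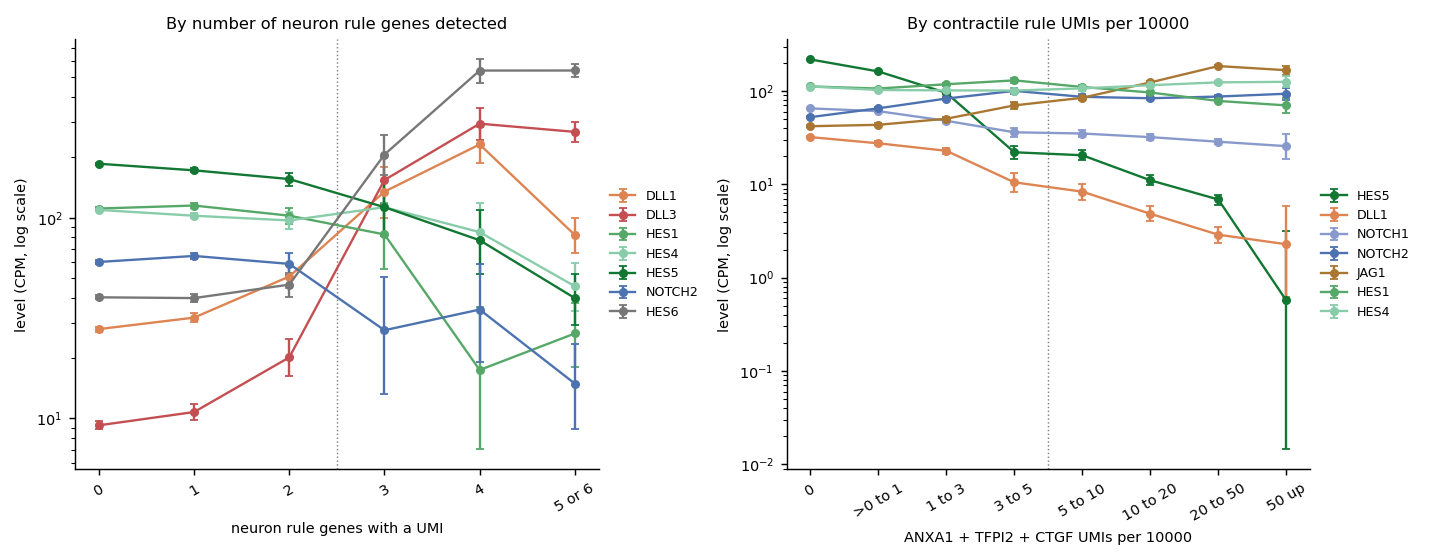
Level (CPM, log axis) of selected members and HES6 by number of neuronal rule genes with a UMI (left) and of selected members by contractile rule UMIs per 10000 UMIs (right), with exact 95% Poisson intervals and a dotted line at each class threshold. From the first to the last bin on the left, DLL3 goes from 9.25 to 268 CPM and HES1 from 111 to 26.5 CPM. From the first to the last bin on the right, HES5 goes from 218 to 0.571 CPM, the latter 1 UMI in 36 cells. JAG1 goes from 42.0 to 167 CPM there and is highest from 20 to 50, at 185 CPM.

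Contractile cells had another pattern, with JAG1 and HEY1 higher and DLL1 and HES5 lower than in progenitors. HES5 was 17.9-fold lower and DLL1 6.69-fold lower, while JAG1 was 3.38-fold and HEY1, a target common in vascular and mesenchymal tissue, 2.83-fold higher. Hence 2 of 10 members were higher and 2 lower, beside 7.5% of 18641 genes that were 2-fold higher and 23.8% that were 2-fold lower. The median ratio of all these genes was 0.773, a shift of -0.37 on the log2 scale, and that of the members was 0.786. The count of lower members and the member median thus lay near the background.

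**Figure D4:**
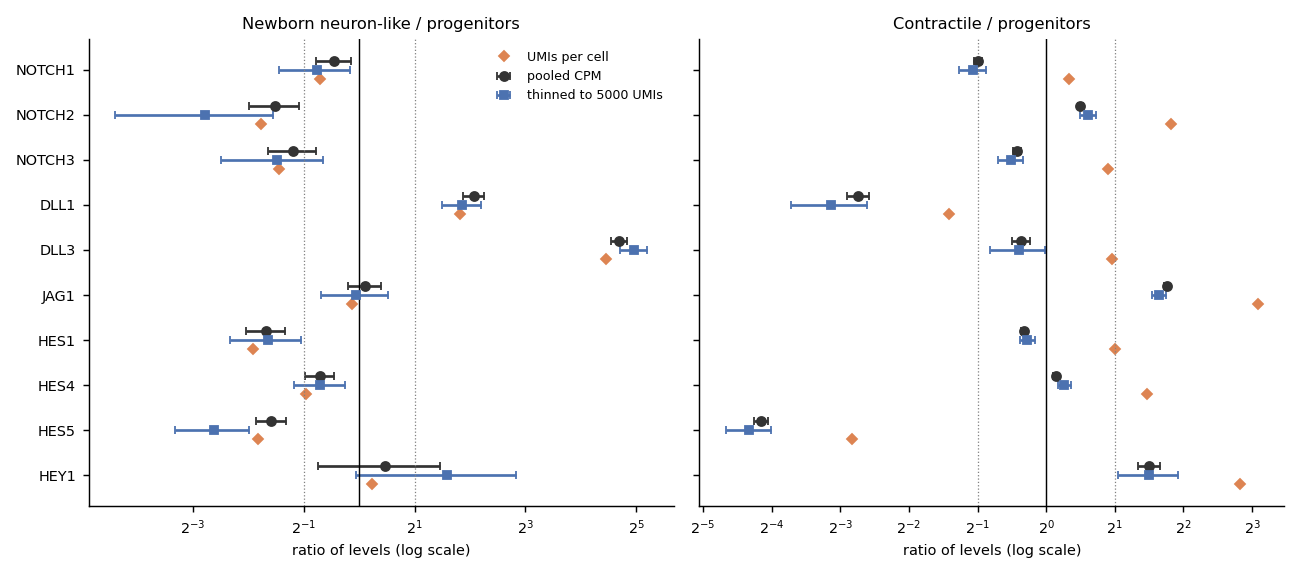
Ratio of each member's level in newborn neuron-like cells (left) and contractile cells (right) to progenitors (log axis), from pooled CPM (circles) and cells thinned to 5000 UMIs (squares), both with exact 95% intervals, and from UMIs per cell (diamonds), with dotted lines at 2-fold. In contractile cells HES5 and DLL1 lie below the lower line on all 3 scales and JAG1 above the upper line, while NOTCH1, NOTCH3, DLL3 and HES1 change side between CPM and UMIs per cell.

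Of the 3 ligands, JAG1 was higher in contractile cells, DLL1 lower, and DLL3 neither. JAG1 measured 149.6 CPM (147 to 152) against 44.2 CPM (43.4 to 45.1), and the contractile cells, 11.4% of cells, held 52.1% of all JAG1 UMIs. DLL1 measured 4.35 CPM (3.89 to 4.84) against 29.1 CPM. DLL3 was 7.57 against 9.76 CPM, a ratio of 0.776 (0.708 to 0.851) beside the median of 0.773 over all genes. At 5000 UMIs a cell, JAG1 was found in 44.6% of contractile cells and 18.5% of progenitors, and DLL1 in 1.77% and 13.8%.

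Receptor levels in CPM lay within 2-fold. NOTCH1 was just inside, at 30.7 against 61.1 CPM and 1.99-fold lower (1.91 to 2.08), and it passed 2-fold at 5000 UMIs a cell, where it was 2.10-fold lower. NOTCH2 was higher, at 86.2 against 61.0 CPM with a ratio of 1.41 (1.37 to 1.45), and NOTCH3 lower, at 38.7 against 52.2 CPM with a ratio of 0.741 (0.712 to 0.772). Counted as UMIs per cell, without correction for the larger RNA content, NOTCH1, NOTCH3, DLL3 and HES1 were instead higher in contractile cells, at ratios of 1.26, 1.86, 1.95 and 1.99, and NOTCH2 (3.54) and HES4 (2.76) passed 2-fold upwards. The share of all genes past 2-fold on this scale was not computed, so these calls have no background beside them.

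The targets did not move together. HES5 was 10.2 CPM (9.50 to 10.9) against 182 CPM and remained lower as UMIs per cell, at 0.494 against 3.52. HEY1 was 8.27 CPM (7.63 to 8.94) against 2.92 CPM, and contractile cells held 47.6% of its UMIs. HES4 and HES1 stayed near the progenitor level in CPM, at 118.5 against 107.7 CPM and 88.9 against 111.7 CPM. At equal depth, 30.1% of contractile cells had HES1 without HES5 and 2.28% HES5 without HES1, whereas these shares were 25.8% and 25.6% in progenitors. HEY1 was 6.23-fold higher within G1 cells, 1.62-fold higher within S cells and 3.09-fold higher within G2/M cells, and at a mitochondrial share below 0.05 it was 1.96-fold higher.

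HES5 was lower well before the threshold of the contractile rule. It was 218 CPM in the 7813 cells with no UMI of the 3 rule genes, 162 CPM in cells with up to 1 per 10000, 95.6 CPM from 1 to 3, and 22.1 CPM from 3 to 5, just below the threshold. Just above it, from 5 to 10, HES5 was 20.5 CPM, and it was 6.89 CPM from 20 to 50. With cells thinned to 5000 UMIs, HES5 was 135.6 CPM from 1 to 3, 37.9 CPM from 3 to 5 and 21.2 CPM from 5 to 10, a larger step across the threshold than in the pooled sums. DLL1 followed the same order, from 32.1 CPM with no UMI to 10.5 CPM from 3 to 5 (18.5 CPM at equal depth) and 2.89 CPM from 20 to 50. JAG1 went the other way, from 42.0 CPM with no UMI to 70.2 CPM from 3 to 5 and 185 CPM from 20 to 50. The progenitors therefore include cells with low HES5 next to the threshold. The progenitor markers SOX1 (65.1, 26.5 and 4.38 CPM with no UMI, from 3 to 5 and from 20 to 50) and SOX2 (443, 229.7 and 89.997 CPM) were lower over the same bins as HES5, and the contractile marker TAGLN was higher (138, 3225 and 5007 CPM). The part of these markers in the values was not tested.

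Across the cell cycle of the progenitors the Notch targets peaked in different phases. In CPM, HES4 and HES5 were highest in S and HES1 in G1. HES4 measured 63.8 CPM in G1, 135.7 CPM in S and 100.1 CPM in G2/M, and HES5 136, 211 and 175 CPM. HES1 had the reverse order, with 139.7 CPM in G1, 93.3 CPM in S and 117 CPM in G2/M. The intervals of neighbouring phases did not overlap for any of these targets. They cover counting error only, and the share of all genes for which this holds was not computed. HEY1 was low in every phase, at 1.81, 3.67 and 2.697 CPM. As UMIs per cell, HES1 (2.05, 1.74 and 2.79 in G1, S and G2/M) and HES5 (1.9997, 3.94 and 4.15) were instead highest in G2/M, and the G2/M to G1 ratio of HES1 turned from 0.839 to 1.36.

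From G1 to S, 2 members passed 2-fold upwards and 0 downwards, beside 5.12% and 1.18% of 16630 genes. HES4 was 2.13-fold higher (2.04 to 2.22) and HEY1 2.03-fold higher (1.59 to 2.62), and HES5 was 1.55-fold higher (1.51 to 1.60). HES1 was 1.497-fold lower (1.45 to 1.55). HEY1 did not keep its place at 5000 UMIs a cell, where the ratio was 1.67 (1.09 to 2.63). It had 81 UMIs in G1 and 353 in S, so its S cells, where it was high, carried it past the minimum of UMIs. HES4 had 2860 UMIs in G1 and passed the minimum there alone. The median ratio was 0.963 over all genes and 1.10 over the members. At a bound of 1.5-fold 3 members (HES4, HES5, HEY1) were higher in S and 2 (DLL1, DLL3) lower, beside 10.4% and 7.67% of genes. HEY1 again entered this count only with its S cells.

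The ligands DLL1 and DLL3 were highest in G1. DLL1 measured 44.4 CPM in G1, 24.8 CPM in S and 26.2 CPM in G2/M, 1.79-fold lower in S (1.69 to 1.90), and at 5000 UMIs a cell it was 2.07-fold lower. DLL3 measured 15.4, 9.44 and 7.43 CPM and was the 1 member past 2-fold between G1 and G2/M, 2.07-fold lower (1.86 to 2.30), while 0 members passed it upwards. Of 16526 genes, 2.58% were 2-fold lower and 4.05% 2-fold higher in G2/M than in G1. At 1.5-fold 1 member (HES4) was higher and 2 (DLL1, DLL3) lower in G2/M, beside 8.7% and 10.2% of genes. JAG1 differed little, with 43.4, 47.3 and 41.5 CPM. The neuronal rule genes summed to 31.1 CPM in G1 progenitors, 15.9 CPM in S and 15.9 CPM in G2/M. The 8 further neuronal markers summed to 784, 711 and 687 CPM. In sum G1 progenitors thus also held more neuronal RNA, but the single markers were divided. DCX, MAP2, STMN4 and TUBB3 were highest in G1. NEFM (194, 246 and 257 CPM in G1, S and G2/M), ONECUT2 and CNTN2 were lowest there, and GAP43 lay between S and G2/M. Over the rule genes with at least 100 UMIs, the ratios of S to G1 ranged from 0.128 to 1.41. The part of neuronal RNA in the ligand differences was not tested. As UMIs per cell DLL1 was nearly level between G1 and G2/M, with a ratio of 0.957, DLL3 (0.784) did not pass 2-fold, and HES4 (2.55), HES5 (2.08) and HEY1 (2.42) passed it upwards in G2/M. With phases scored on thinned cells DLL3, at 0.519, did not pass it either. The share of all genes past 2-fold by UMIs per cell was not computed, and the median UMIs were 21764 in G2/M and 13483 in G1. HEY1, with 81 UMIs in G1 and 256 in G2/M, reached the minimum of 100 only with its G2/M cells.

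The 3 receptors differed little over the cycle, NOTCH3 most among them, with 1.23-fold more (1.17 to 1.296) in G2/M than in G1. NOTCH1 measured 56.2, 62.2 and 62.3 CPM in G1, S and G2/M, NOTCH2 61.4, 55.1 and 66.9 CPM, and NOTCH3 44.7, 52.9 and 55.02 CPM. Between S and G2/M 0 of 10 members passed 2-fold in either direction, beside 1.12% of 17288 genes upwards and 1.19% downwards. From S to G2/M the highest member ratio was that of HES1, 1.26 (1.22 to 1.29), and the lowest were those of HEY1, 0.735 (0.623 to 0.866), and HES4, 0.738 (0.718 to 0.758). The median UMIs per cell were 13483 in G1, 16809.5 in S and 21764 in G2/M, which is why UMIs per cell and CPM give different ratios here.

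Progenitors also differed among themselves in HES5 more than in the other members. With every progenitor thinned to 5000 UMIs, HES5 had 0 UMIs in 61.2% of 12196 cells and 5 or more in 6.16%, up to 18 in a cell. Its Fano factor, the variance over the mean of the UMIs per cell, was 3.38, whereas 935 genes of similar mean had a median of 1.11 and a 90th percentile of 1.42. HES4 (1.497), HES1 (1.35) and DLL1 (1.297) also lay above the 90th percentile of genes of similar mean. DLL3 (1.06), HEY1 (1.04), JAG1 (1.11) and the 3 receptors (1.06 to 1.07) did not. HES1 showed together with HES5 in 13.2% of progenitors.

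The targets fell into sets that went together within cells. Progenitors with a HES4 UMI had 2.59-fold more HES5 (2.503 to 2.69) than those without, 335 against 129 CPM. Those with a HEY1 UMI, 166 cells, had 2.29-fold more HES5 (2.06 to 2.53) and 2.07-fold more HES4. HES1 was on the other side: cells with a HES1 UMI had 1.57-fold less HES5, 151 against 238 CPM, and 1.35-fold less HES4, 91.5 against 124 CPM. The HES4 and HES5 pairing was present within each phase, at 2.43-fold in G1, 2.497-fold in S and 2.62-fold in G2/M, and so was the lower HES5 in cells with HES1, at ratios of 0.741, 0.657 and 0.591. In the progenitors with no UMI of the contractile rule genes the ratios were 2.41 and 0.665. For these pairs and for the ligand comparisons that follow, the share of all genes that differed as much was not computed. Their intervals count every UMI as independent. HES5, with a Fano factor of 3.38, varied more from cell to cell than that, so its intervals are too narrow for the spread over cells.

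**Figure D5:**
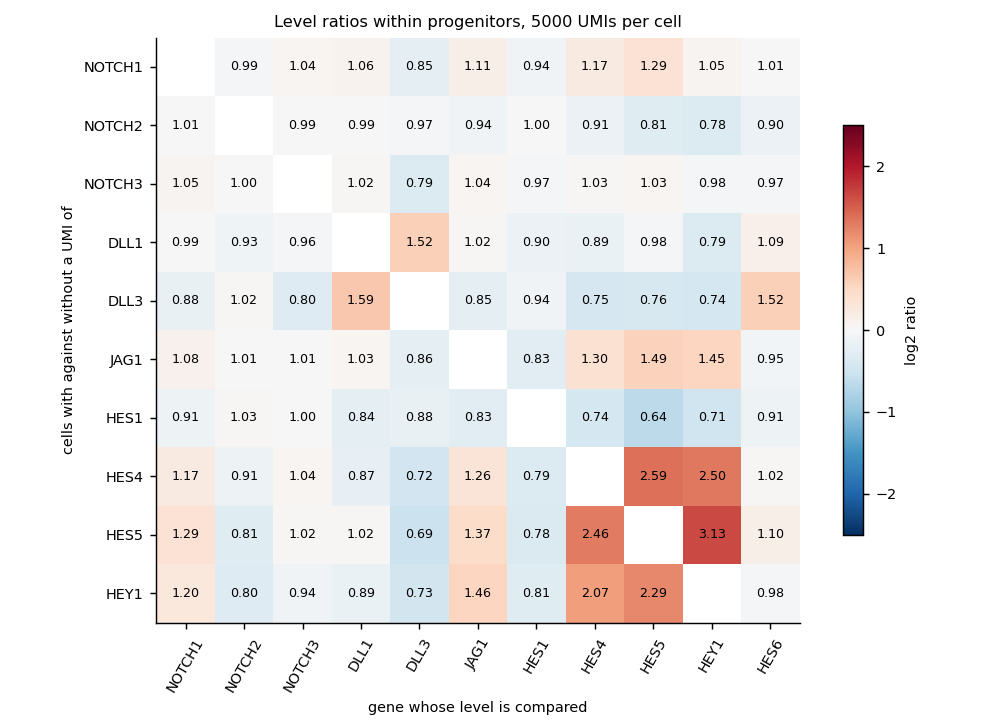
Ratio of the level of the column gene in progenitors with a UMI of the row gene to progenitors without one, all cells thinned to 5000 UMIs, coloured by log2 ratio. HES4, HES5 and HEY1 are higher in each other's presence (2.07 to 3.13), HES5 is lower with HES1 (0.64), and HES6 is higher with DLL3 (1.52).

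Ligands differed in the targets they went with. Progenitors with a JAG1 UMI had 1.49-fold more HES5 (1.43 to 1.55), and those with a DLL3 UMI 1.32-fold less, 156 against 207 CPM, although within S cells the latter ratio was 0.898 (0.788 to 1.02). DLL1 and DLL3 went together, with 1.52-fold more DLL3 (1.23 to 1.86) in cells with DLL1, but its interval included 1 within S cells, at 1.05 (0.679 to 1.55), and within G2/M cells, at 1.57 (0.939 to 2.51). HES6, a HES relative that opposes HES1, was 62.3 CPM in progenitors with DLL3 and 40.9 CPM in those without, 1.52-fold higher (1.299 to 1.77).

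Progenitors with DLL RNA had slightly less target RNA. The 2149 progenitors with a DLL1 or DLL3 UMI had 396 CPM of the 4 targets together, and the 10047 with neither had 441 CPM, a ratio of 0.899 (0.870 to 0.929). The single ratios were 0.917 for HES1, 0.856 for HES4, 0.914 for HES5 and 0.806 (0.505 to 1.24) for HEY1. The summed ratio was 0.808 (0.758 to 0.862) in G1, and its interval included 1 in the other phases, at 0.968 (0.9204 to 1.02) in S and 0.978 (0.921 to 1.04) in G2/M. The ratios in the phases were read side by side, and the difference between them was not tested.

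Genes that marked progenitors with HES5 were picked in every other cell and read in the remaining cells. EPHA3, an ephrin receptor, was 5.57-fold higher (4.63 to 6.73) with HES5, C1orf61 4.95-fold, VEPH1 3.99-fold, AL139246.5 3.83-fold and EDNRB, an endothelin receptor, 3.401-fold. AL139246.5 is the listed gene that overlaps HES5 on the opposite strand. As the counting strand is not stated in the sources used here, the counts of each may include reads of the other. EPHA3 and C1orf61 also led the genes picked for HEY1, at 5.30-fold (3.85 to 7.13) and 3.62-fold, followed by PTCHD1-AS at 3.17-fold and RSPO1 at 3.09-fold, while MAP7D2 read 1.49-fold (0.595 to 3.11). JAG1 shared EPHA3 at 2.02-fold and EDNRB at 1.695-fold, and its other picks MORC4, CHPF2 and KCNS3 read 1.04-fold to 1.35-fold with intervals that included 1. For DLL1, C1orf61 read 1.91-fold and OTX1, a forebrain homeobox factor, 1.66-fold, whereas CFAP70, DHRS11 and AL592043.1 read between 0.966 and 1.22. No gene picked for DLL3 was higher with it in the remaining cells: ZNF780A, C21orf62-AS1, BAALC-AS1 and ZNFX1 had intervals that included 1, and HTR2C was lower, at 0.703 (0.545 to 0.894).

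Other genes of the pathway were read in the same way. Of 53 listed pathway genes, 44 had at least 100 UMIs in newborn neuron-like cells and progenitors together, and 13 of these were higher and 3 lower in newborn neuron-like cells, with a median ratio of 1.14, beside 10.7% higher, 11.4% lower and a median of 0.981 over all genes. The count of 13 includes the proneural factor NEUROG1, which had 232 UMIs in newborn neuron-like cells and 47 in progenitors and so reached the minimum of 100 only through the class where it was high, which fixed its call. HES6 was 11.9-fold higher, at 479 against 40.2 CPM. NEURL1B, NEURL1 and MIB1, ligases that ubiquitylate ligands for their internalization, were 9.69-fold, 2.51-fold and 2.14-fold higher. The glycosyltransferase MFNG was 15.2-fold higher, the Notch inhibitor NUMBL 5.56-fold, the coactivator MAML3 3.10-fold, the corepressor TLE1 3.19-fold and the Notch regulator DTX1 3.74-fold. JAG2, DLK2 and HEY2 were counted as higher on 9, 4 and 7 UMIs in the class, and NOTCH4 and DTX2 as lower on 3 and 4 UMIs. DTX4 was 2.86-fold lower (1.81 to 4.83). None of the 8 genes of receptor cleavage on the list passed 2-fold.

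In contractile cells 0 of 45 such genes were higher and 10 lower, with a median ratio of 0.763. This lay near the background, in which 7.5% of all genes were higher and 23.8% lower with a median of 0.773. The lower genes included the fringe glycosyltransferases LFNG (8.02 against 25.3 CPM, 3.15-fold lower) and MFNG (5.81-fold lower), the feedback inhibitor NRARP (3.84 against 9.93 CPM, 2.59-fold lower), MAML3 (3.53-fold lower) and HES6 (2.63-fold lower). TLE4 was 2.28-fold, DTX1 2.81-fold, DLK2 2.24-fold, NOTCH4 2.07-fold and HEYL, on 4 UMIs, 7.87-fold lower. MFNG, DLK2 and HEYL owed their place among the 45 to their progenitor UMIs. Between phases few genes of the list passed 2-fold. Of 42 genes, DLK2, NEURL1 and NEURL1B were higher in S than in G1 (3.19-fold, 2.68-fold and 2.40-fold) and 0 were lower, beside 5.12% and 1.18% of all genes. DLK2 and NEURL1 had 19 and 64 UMIs in G1, so their S cells carried them past the minimum. Of 41 genes, DLK2 and NEURL1B were higher in G2/M than in G1 (2.14-fold and 2.57-fold), and MFNG was lower (2.15-fold), beside 4.05% higher and 2.58% lower of all genes. DLK2, with its 19 UMIs in G1, passed the minimum there only with its G2/M cells. JAG2 was 3.35-fold lower in G2/M than in S, the 1 such gene of 43, beside 1.19% of all genes. It owed its place among the 43 to its S cells, where it was high.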

How the data were processed

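RNA of H9-derived cells of 1 library was captured with a droplet 3′ assay. The authors deposited raw counts, UMIs per gene and barcode, without normalization. Per the submitters' processing notes these came from Cell Ranger 7.0.1 with genome build GRCh38 (Seurat 4.4.0 was also named), and the study's methods give default settings. In this version of the software intronic reads are counted by default, so unspliced RNA adds to the levels. The annotation version and the counting strand are not given in the sources used here, and no correction for free RNA was made.

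The kept cells held 314660383 UMIs, and the filter of the study's methods (2000 to 10000 genes, mitochondrial share below 0.1) removed 801 barcodes. Phases came from scanpy scores with 42 of 43 S and 52 of 54 G2/M genes of the lists shipped with Seurat, which hold no member. Shares and pairs used cells thinned once to 5000 UMIs, which left out 28 kept cells. Scrublet called 1 doublet and so had not worked; leaving out the 8% highest scores was tried instead. Class sums at 0 UMIs were set to 3 counts for calls. Code was tested on simulated data. Each member is named, with listed pathway genes past 2-fold on at least 100 UMIs and, for HES5, HEY1, DLL1, DLL3 and JAG1, the 5 genes of highest ratio among those with 200 UMIs or more. Members and lists were chosen with earlier results of these data known. A gene of the pathway list is not reported here. Alternatives included other scalings, filters, thresholds and phase calls. Comparisons within phases and without cells of mitochondrial share below 0.01 were added after seeing the data.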

Additional observations from a re-analysis of the deposited data

How the results depend on the processing

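Of the single member ratios under the alternatives, 165 of 170 kept their direction for contractile cells, 148 of 150 for newborn neuron-like cells, 129 of 130 for S against G1 and 126 of 130 for G2/M against G1. These counts include the settings at 1.5-fold and without the minimum of 100 UMIs. Both leave every ratio as it was, so their ratios could not change direction and add no support. Members counted as higher in contractile cells were 4 by UMIs per cell (with NOTCH2 and HES4), and 1 at a mitochondrial share below 0.05 or within S cells alone (chosen after seeing the data). The share of all genes past 2-fold by UMIs per cell was not computed for any comparison. Contractile cells had a median of 47149.5 UMIs against 16944 in progenitors. NOTCH1 joined the lower members in contractile cells at ratios of 0.442 to 0.498 by the mean of per-cell CPM, without mitochondrial and ribosomal UMIs, at 5000 UMIs a cell, at a mitochondrial share below 0.05, with 3000 to 9000 genes, without the highest Scrublet scores, at a threshold of 10 and within S cells, and at 1.5-fold. When 2 neuronal genes sufficed, which adds the 207 cells with 2, DLL3 was 9.60-fold and DLL1 2.54-fold higher in newborn neuron-like cells. Members lower there were 0 in that setting, 3 with the cells of both rules (without NOTCH3), 5 at 1.5-fold (with HES4) and 6 at 2500 UMIs a cell (with NOTCH1 and HES4). HEY1 passed 2-fold upwards there at 5000 UMIs a cell (2.99, 0.958 to 7.11, on 5 UMIs), at 2500 (2.52) and within G1 cells (2.74). For S against G1, 1 member was higher by the mean of per-cell CPM, at 5000 or 2500 UMIs a cell and with phases scored on thinned cells, and 1 was lower at 5000 UMIs a cell and 2 at 1.5-fold. For G2/M against G1, 3 were higher and 0 lower by UMIs per cell, 1 higher and 2 lower at 1.5-fold, and 0 lower with phases scored on thinned cells. The summed target ratio of ligand-positive cells was 0.952 (0.897 to 1.01) at 2500 UMIs a cell, 0.808, 0.968 and 0.978 within G1, S and G2/M, and 0.847 with 2 or more ligand UMIs. Its HES1 part reversed to 1.02 at 2500 UMIs a cell and to 1.02 within S, its HES5 part to 1.08 within G2/M, and its HEY1 part to 1.84 (0.9297 to 3.36) and 1.12 (0.581 to 1.999) at 2500 UMIs a cell and within S. Except where fewer or more cells enter by construction, the cause was not tested. No paired analysis was possible because there is 1 library. Depth limits HEY1, with 8 UMIs in newborn neuron-like cells, and the levels of that class of 121 cells.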
